A study of Mus musculus with 6 samples.

Results

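The cohesin subunits and loaders described here are 10 genes, Rec8 and 9 somatic genes, among the 24411 genes of the count tables. They were picked by symbol, with their levels in these same libraries already known, so the KO and WT values of the 10 genes are a description and carry no test. The libraries came from cerebellum of mice at postnatal day 18 (P18). The Atoh7 Remote Enhancer KO group (KO, 3 libraries) lacks a distal regulatory element of Atoh7, a basic helix-loop-helix gene whose product is needed for retinal ganglion cells, and the WT group (3 libraries) has it; the labels name no other allele or agent. The replicates of each genotype are independent, per the labels' protocol, which does not say whether a library is 1 animal or a pool.

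Cohesin is a ring that holds DNA strands together. The SMC proteins Smc1a and Smc3 form its arms, a kleisin closes it, and a STAG protein binds the kleisin. The loader protein Nipbl helps it onto chromatin, where it extrudes loops that stop at CTCF sites, and Wapl with the PDS5 proteins takes it off again. In neurons, which no longer divide, cohesin is known for its part in loops and gene regulation. Rad21 is the kleisin of somatic cells, while Rec8 replaces it in germ cells at meiosis, where it keeps sister chromatids joined through the first division.

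All 10 genes were found in the tables, Wapl under its older symbol Wapal. In GENCODE's annotation of GRCm38 each is protein coding. Rec8 spans chr14:55618037-55625395 on the plus strand and has 16 merged exons in 7359 bases, the shortest span of the 10. Rad21 (chr15:51962240-51991747) and Nipbl (chr15:8290617-8444463) lie on the minus strand of one chromosome. Wapl (chr14:34673928-34747983, plus strand) shares a chromosome with Rec8, far from it. Smc1a (chrX:152016428-152062694) and Stag2 (chrX:42149317-42277185) are X-linked, both on the plus strand. Smc3 is at chr19:53600398-53645833 and Stag1 at chr9:100597798-100959375, both on the plus strand. Pds5a (chr5:65605721-65698273, minus strand) and Pds5b (chr5:150673739-150810690, plus strand) are on one chromosome as well. No exon of the 10 overlaps an exon of another gene on the same strand. Exons of Stag2 and of Pds5a overlap genes on the opposite strand, by 28 bases for Stag2.

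The sequence before the start of Rec8 is shown because Rec8 is the meiotic gene of the list, and that of Stag1 stands beside it as a window of a somatic member. RefSeq's GRCm38.p6 table held the 250 bases before the start for 7 of the 10 genes (Rec8, Smc1a, Smc3, Stag1, Wapl, Pds5a and Pds5b), and Rad21, Stag2 and Nipbl are named only. The Rec8 window is chr14:55617916-55618165 on the plus strand. Its last 129 bases lie in the first exon of a GENCODE transcript, so the 121 bases before that exon are printed, at chr14:55617916-55618036. The Stag1 window, chr9:100643198-100643447 on the plus strand, lies inside the annotated Stag1 gene but in no annotated exon of it. Capitals mark matches, on either strand, to the CCAAT box (CCAAT, or ATTGG on the other strand), the E-box CACGTG and the E2F core GCGGGAA, whose other strand reads TTCCCGC.
Rec8: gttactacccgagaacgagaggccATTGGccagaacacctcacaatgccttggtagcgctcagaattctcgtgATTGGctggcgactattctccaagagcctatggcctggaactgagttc
Stag1: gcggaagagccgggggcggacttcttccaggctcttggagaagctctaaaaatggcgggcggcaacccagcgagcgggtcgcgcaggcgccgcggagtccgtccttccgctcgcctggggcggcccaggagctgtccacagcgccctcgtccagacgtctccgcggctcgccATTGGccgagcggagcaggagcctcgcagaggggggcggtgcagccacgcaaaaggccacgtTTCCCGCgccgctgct

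Over its 250 bases the Rec8 window held 3 CCAAT boxes, 2 of them in the printed stretch, and no match to the E-box or the E2F core. A CCAAT box was present in 33.8% of the 32851 windows in the table, and 3 or more in 2.79%. The Rec8 window had 10 CpG sites and was 56.0% G and C. The Smc1a window had 16 CpG sites, Smc3 26, Stag1 31, Wapl 32, Pds5b 36 and Pds5a 44. Rec8 thus had the fewest CpG sites of the 7 windows, though 64.4% of all windows had as few or fewer, with a median of 6. The E2F core, found in 3.82% of windows, was present in Stag1 and Pds5a, and the E-box, found in 6.02%, in none of the 7. CCAAT boxes were also present in Smc1a, Stag1, Pds5b and, as 2 copies, Wapl. A match shows only that these letters are in the window.

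Libraries held 46160747 to 51947647 reads in all, of which 32556977 to 34438262 fell on genes in KO and 16340132 to 28170761 in WT. WT replicate 3 stood apart, with 63.2% of its gene reads on the ribosomal RNA precursor Rn45s, against at most 3.04% in any other library, and 6015125 reads left for other genes. Reads outside genes made up 17.3% ± 0.291 of KO and 34.3% ± 3.59 of WT libraries (SD, n = 3 each). WT replicate 1 was the single library with abundant Xist (31134 reads) and 0 reads on Y-linked genes. Atoh7 had 45, 54 and 92 reads in KO and 72, 56 and 7 in WT; the labels call the deleted element remote, so this level does not check the genotype. The tissue entry of the labels reads retina. Purkinje and granule neuron markers were abundant in both groups, with Calb1 at 574 CPM in KO and 447 CPM in WT (means) and Gabra6 at 181 CPM in KO and 286 CPM in WT; both passed the test, in opposite directions. Gnat1, the rod transducin gene, averaged 0.108 CPM in KO and 0.154 CPM in WT. CPM are reads scaled to a library of 1e+06 reads, and 3 reads correspond to 0.0723 to 0.0778 CPM in KO libraries, 0.0871 and 0.0928 CPM in WT replicates 1 and 2 and 0.465 CPM in WT replicate 3.

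Rec8 was nearly silent in KO and clearly expressed in WT, and of the somatic members none came near that difference. Somatic members were lower in KO by at most 0.49 on the log2 scale, and the levels of Rad21, the somatic kleisin, overlapped between the genotypes. Rec8 had 54, 59 and 41 reads in KO replicates 1 to 3, against 596, 647 and 132 reads in WT replicates 1 to 3. As a level, this was 1.40, 1.49 and 0.988 CPM in KO, and 17.3, 20.0 and 20.5 CPM in WT. The KO libraries sat close together, far below every WT library, and WT replicate 3 did not stand apart once its depth was taken into account. The means were 1.29 ± 0.267 CPM in KO and 19.3 ± 1.71 CPM in WT (SD, n = 3 each), and the log2 fold change was −3.88 (SE 0.15), or 14.8-fold lower in KO in the fit. Only 6 of the 15519 tested genes had a lower log2 fold change. In bulk tissue, fewer cells with Rec8 RNA and less Rec8 RNA per cell cannot be told apart. Without WT replicate 3 the log2 fold change of Rec8 was −3.85, and without WT replicate 1 it was −3.97.

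Rec8 reads in KO were few but lay above the level of 3 counts in each library. On the strand opposite to Rec8 the tables list 4, 2 and 4 reads in KO and 9, 11 and 3 reads in WT. They were 6.10% of Rec8 reads on both strands in KO (95% Clopper-Pearson interval 2.96 to 10.9, summed over 3 libraries) and 1.65% in WT (1.05 to 2.46). In the other 9 members the opposite strand held between 0.0552% and 4.38% of a library's reads, the highest share being that of Pds5a in WT replicate 3. Summed over the libraries, the opposite strand had 10 reads in KO and 23 in WT, so its reads were fewer in KO while its share was higher. The intervals treat the reads of 3 libraries as 1 sample and do not cover the spread between libraries.

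**Figure D1:**
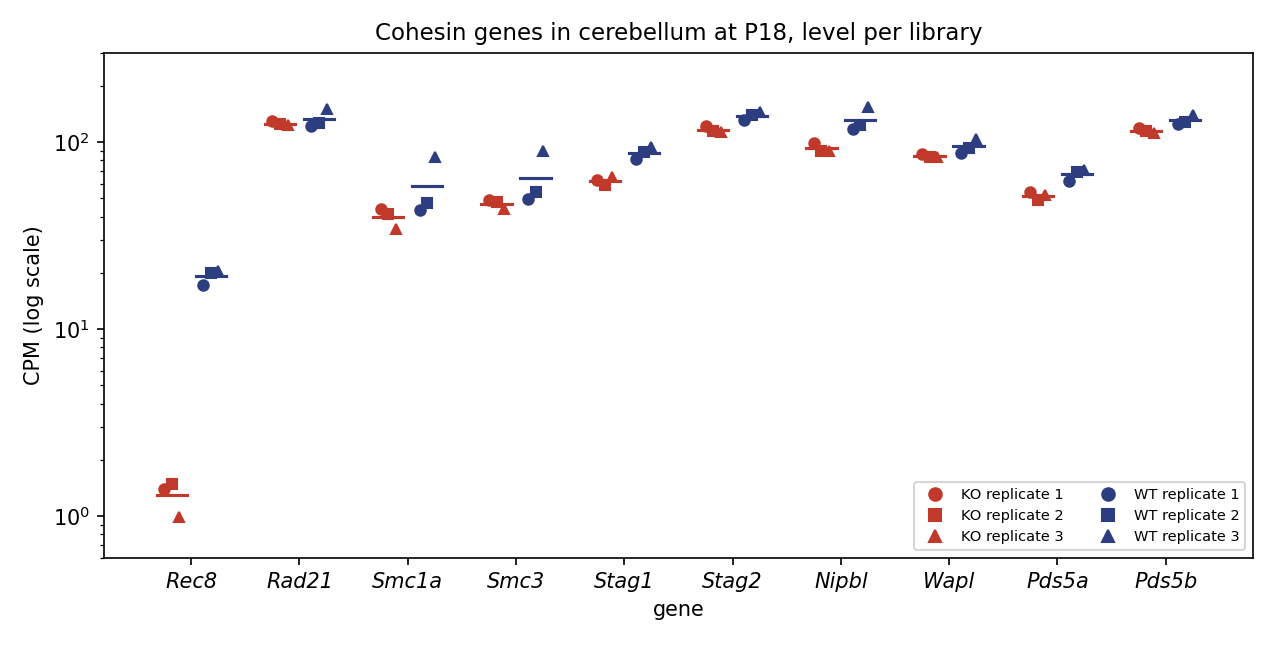
Level of each cohesin gene in each library, in CPM on a log axis, with KO in red to the left and WT in blue, one symbol per replicate and a bar at the mean of 3. Rec8 sits at 0.988 to 1.49 CPM in KO and at 17.3 to 20.5 CPM in WT, while the somatic genes differ by at most 0.49 on the log2 scale and WT replicate 3 is the highest WT library throughout.

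Rad21, the kleisin that closes the ring in somatic cells, had 130, 124 and 123 CPM in KO, against 123, 126 and 150 CPM in WT. The groups overlapped, and only WT replicate 3 lay above the rest. Its means were 126 ± 3.43 CPM in KO and 133 ± 15.0 CPM in WT (SD, n = 3 each), and the log2 fold change was −0.07 (SE 0.08), and 0.02 without WT replicate 3. Rad21 had the highest level per length of the 10 genes, at 29.7 ± 0.811 CPM per kilobase of merged exon in KO and 31.4 ± 3.55 in WT. Rec8 was at 0.440 ± 0.0910 CPM per kilobase in KO and 6.56 ± 0.581 in WT.

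Set against Rad21 in the same library, Rec8 made up 1.53%, 1.70% and 1.14% of the kleisin level per kilobase in KO, and 16.9%, 18.6% and 16.4% in WT. The share was thus below 2% in each KO library and above 16% in each WT library, and this measure does not use the scaling between libraries. The means were 1.46% ± 0.284 in KO and 17.3% ± 1.15 in WT (SD, n = 3 each), a difference of −15.85 percentage points. As a share of reads, not divided by length, Rec8 held 1.07% of Rec8 and Rad21 reads in KO replicate 1 (95% Clopper-Pearson interval 0.803 to 1.39) and 12.4% in WT replicate 1 (11.5 to 13.3). Counting error is therefore small beside the difference between the groups. Per kilobase, Rad21 exceeded Rec8 69.6 ± 15.0 times in KO and 4.80 ± 0.374 times in WT (SD, n = 3 each).

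The SMC arms depended most on a single library. Smc1a, the arm encoded on the X chromosome, had 43.8, 41.1 and 34.2 CPM in KO and 43.4, 47.4 and 83.4 CPM in WT. KO replicate 1 lay above WT replicate 1, and WT replicate 3 lay far above all the others. Its means were 39.7 ± 4.97 CPM in KO and 58.1 ± 22.0 CPM in WT (SD, n = 3 each), and the log2 fold change was −0.49 (SE 0.27), −0.19 (SE 0.10) without WT replicate 3 and −0.66 (SE 0.27) without WT replicate 1. Smc3, the other arm, had 49.1, 48.0 and 43.7 CPM in KO and 49.5, 54.1 and 89.6 CPM in WT. The groups did not overlap, yet KO replicate 1 and WT replicate 1 were almost level. Smc3 averaged 47.0 ± 2.89 CPM in KO and 64.4 ± 21.9 CPM in WT (SD, n = 3 each), and its fold change on the log2 scale was −0.41 (SE 0.22), and −0.14 (SE 0.07) without WT replicate 3. The arms kept pace with each other across libraries: per kilobase, Smc1a was 0.857, 0.821 and 0.752 times Smc3 in KO and 0.842, 0.841 and 0.894 times in WT, ranges that overlap.

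Among the STAG subunits, which bind the kleisin and help place the ring, Stag1 was lower in KO by more than Stag2. Stag1 had 62.8, 59.3 and 65.1 CPM in KO, against 81.3, 88.2 and 94.7 CPM in WT. Every KO library lay well below every WT library, with gaps wider than the spread inside either group. The means were 62.4 ± 2.92 CPM in KO and 88.1 ± 6.72 CPM in WT (SD, n = 3 each), and the log2 fold change was −0.49 (SE 0.07), and −0.44 (SE 0.06) without WT replicate 3. Stag2, X-linked like Smc1a, had 122, 115 and 113 CPM in KO and 131, 139 and 145 CPM in WT. The groups did not overlap, with a gap of the size of the spread among replicates. Stag2 averaged 116 ± 4.64 CPM in KO and 138 ± 7.03 CPM in WT (SD, n = 3 each), and the log2 fold change was −0.25 (SE 0.06), −0.21 without WT replicate 3 and −0.28 without WT replicate 1, the library with abundant Xist. Per kilobase Stag2 exceeded Stag1, 2.66 ± 0.163 times in KO and 2.24 ± 0.0575 times in WT, and these ratios did not overlap between the groups. Of single tested genes, 39.4% did not overlap between the groups either. No such share was computed for ratios of 2 genes, so nothing is read from the overlap of ratios here or below.

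Nipbl, the larger part of the loader, was lower in KO by as much as Stag1. It had 99.2, 90.3 and 90.0 CPM in KO and 117, 124 and 155 CPM in WT. The groups did not overlap, and WT replicate 3 was the highest by a wide margin. The means were 93.2 ± 5.23 CPM in KO and 132 ± 20.3 CPM in WT (SD, n = 3 each), and the log2 fold change was −0.49 (SE 0.10), and −0.37 (SE 0.06) without WT replicate 3. Wapl, which opens the ring and releases it, had 85.9, 83.3 and 83.6 CPM in KO and 87.7, 93.3 and 104 CPM in WT. KO and WT were separated only narrowly, with KO replicate 1 just under WT replicate 1. Wapl averaged 84.3 ± 1.43 CPM in KO and 94.9 ± 8.20 CPM in WT (SD, n = 3 each), and the log2 fold change was −0.16 (SE 0.07), and −0.10 without WT replicate 3. The ratio of Nipbl to Wapl per kilobase was 0.776 ± 0.0303 in KO and 0.973 ± 0.0665 in WT (SD, n = 3 each), without overlap.

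The PDS5 proteins sit on the ring beside the kleisin and take part both in release and in guarding cohesion. Pds5a had 54.2, 48.8 and 52.4 CPM in KO, against 62.1, 69.4 and 71.0 CPM in WT. All KO libraries were clearly under the WT libraries. Its means were 51.8 ± 2.77 CPM in KO and 67.5 ± 4.73 CPM in WT (SD, n = 3 each), and the log2 fold change was −0.38 (SE 0.07), and −0.34 (SE 0.06) without WT replicate 3. Pds5b had 120, 115 and 112 CPM in KO and 125, 129 and 140 CPM in WT. The groups were apart by less than the spread among the WT libraries. Pds5b averaged 115 ± 4.14 CPM in KO and 131 ± 7.45 CPM in WT (SD, n = 3 each), and the log2 fold change was −0.18 (SE 0.07), and −0.14 without WT replicate 3. Per kilobase Pds5b exceeded Pds5a 4.38 ± 0.221 times in KO and 3.82 ± 0.170 times in WT, again without overlap.

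**Figure D2:**
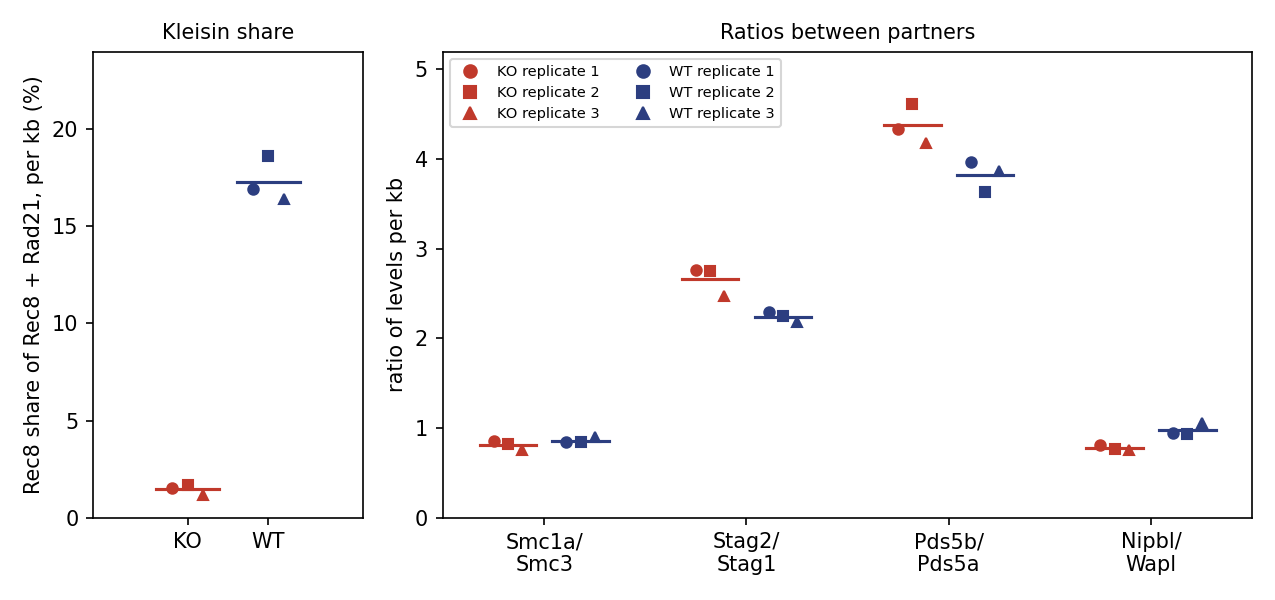
Left, Rec8 as a percentage of the summed Rec8 and Rad21 level per kilobase in each library, and right, ratios of levels per kilobase between partner genes; KO is in red to the left of WT in blue, one symbol per replicate, with a bar at the mean of 3. The kleisin share is 1.14% to 1.70% in KO and 16.4% to 18.6% in WT. Of the 4 ratios only Smc1a over Smc3 overlaps between the groups. Of single tested genes 39.4% do not overlap, and no such share was computed for ratios.

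In 8 of the 10 genes every KO library lay below every WT library, all but Rad21 and Smc1a, against 39.4% of all tested genes whose groups did not overlap in either direction. An adjusted p under 0.05 in edgeR's quasi-likelihood test was reached by 5 of the 10 (Rec8, Stag1, Stag2, Nipbl and Pds5a), where 16.7% of the 15519 tested genes were called in either direction. All 5 were lower in KO, a direction in which 10.2% of tested genes were called, while 6.43% were called higher. Because the genes were chosen with this contrast known, nothing is read from these counts. Over the 9 somatic members the log2 fold change ran from −0.49 to −0.07 with a median of −0.38, where the median over all tested genes was −0.01.

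Single libraries moved with these somatic values. In all 10 genes WT replicate 3 was the highest and WT replicate 1 the lowest of the WT libraries, an order found in 23.1% of all tested genes. Without WT replicate 3 the median over the 9 somatic members was −0.19 and the same 5 members were called. Calls of members in this and the other fits are a description too, because the genes were chosen with this contrast known. Without KO replicate 2 or without KO replicate 3 Rec8, Stag1 and Pds5a were called, 3 of the 10, and Stag2 was also not called without KO replicate 1 or WT replicate 2. With a covariate for read assignment, the log2 of the reads outside genes over those in genes (Rn45s left out), Rec8 was at −3.79 and Stag1 at −0.35, and these were the members called. In that fit Rad21 was at 0.16, Smc1a at 0.27, Smc3 at 0.28, Pds5a at −0.28 and Nipbl at −0.17. The part of read assignment in the somatic values was not tested, and within the groups the covariate varies almost only through WT replicate 3. Between the groups it was separate, at −1.89, −1.95 and −1.89 in KO and −0.70, −0.71 and 1.56 in WT (replicates 1 to 3). Read assignment and genotype therefore cannot be told apart in these libraries, for the members or for the genes below.

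**Figure D3:**
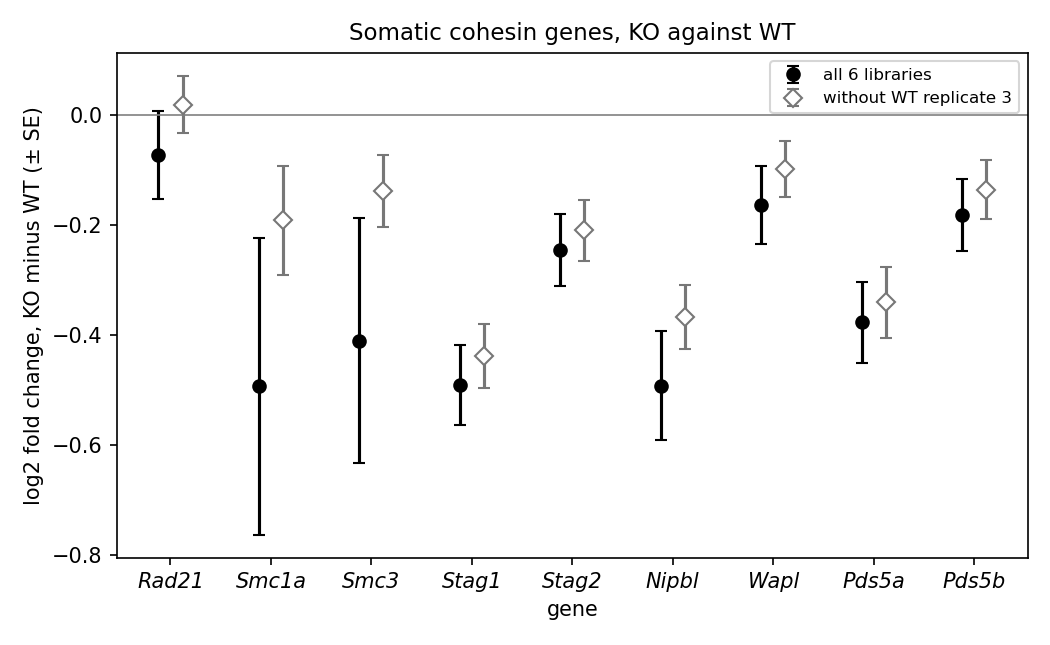
Log2 fold change, KO minus WT, of the 9 somatic cohesin genes with its SE, from all 6 libraries (filled circles) and without WT replicate 3 (open diamonds). Smc1a moves to −0.19 and Smc3 to −0.14 without that library, while Stag1 stays at −0.44 and Pds5a at −0.34.

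By level per kilobase the order in KO was Rad21, Stag2 (14.1), Wapl (12.7), Pds5b (11.7), Nipbl (9.89), Smc3 (8.47), Smc1a (6.88), Stag1 (5.29), Pds5a (2.68) and Rec8 (0.440, all mean CPM per kilobase). No neighbours in that order had overlapping ranges over the 3 KO libraries. In WT the order was Rad21, Stag2 (16.7), Wapl (14.3), Nipbl (14.0), Pds5b (13.3), Smc3 (11.6), Smc1a (10.1), Stag1 (7.47), Rec8 (6.56) and Pds5a (3.49). There each gene from Wapl down to Rec8 overlapped the next, while Rad21, Stag2 and Pds5a were separate from their neighbours. Rec8 therefore ranked last in KO, but in WT its range overlapped that of Stag1 and lay above that of Pds5a. Within each WT library Stag1 was above Rec8, at 6.90, 7.49 and 8.04 against 5.90, 6.82 and 6.97 CPM per kilobase. Divided by the longest annotated transcript in place of all merged exons, Stag1 moved to 10.1 in KO and 14.2 in WT, the fifth place, and Rec8 kept the tenth place in KO and the ninth in WT. The middle of this order thus rests on the length used.

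The genes with the most similar pattern to Rec8 over the 6 libraries were taken by the smallest root mean square distance of centred log2 CPM. They were Eqtn (0.616), 6430411K18Rik (0.693), Fggy (0.693), 6330415B21Rik (0.727) and 1700030C10Rik (0.738). Eqtn had 0, 0.202 and 0.0482 CPM in KO and 1.42, 1.27 and 1.39 CPM in WT. Fggy had 0.0778, 0.404 and 0.0964 CPM in KO and 5.55, 7.05 and 6.04 CPM in WT. In KO replicates 1 and 3 Eqtn was below the level of 3 reads. Each of the 5 was lower in every KO library than in every WT library, as the choice by likeness implies.

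No tested gene next to Rec8 differed between the genotypes by as much as Rec8. Of the 10 nearest genes on each side, 17 of 20 were tested, and 1 was called lower and 0 higher. Over all tested genes 10.2% were called lower and 6.43% higher. The log2 fold changes of the 17 neighbours had a median of 0.09. Nedd8, a ubiquitin-like protein gene, was at −0.03 in this fit. It was called higher without WT replicate 3 (0.20) and with the covariate (0.56, adjusted p = 0.00197, edgeR), in which no other of the 17 neighbours was called. Without WT replicate 1 Cpne6 was called higher (0.59), and Dhrs1 (0.21 in this fit) was by limma-voom and when reads were counted without regard to strand. Ipo4, an importin gene whose body lies 5 bases from that of Rec8, had 65.2, 66.8 and 62.0 CPM in KO, against 59.5, 58.4 and 53.5 CPM in WT. Its KO libraries were all above the WT libraries, at a log2 difference of 0.17 (SE 0.07, adjusted p = 0.104 in edgeR's quasi-likelihood test, adjusted by Benjamini-Hochberg). Irf9, an interferon-responsive transcription factor gene 8007 bases away on the other side, fell to 5.86 ± 0.394 CPM in KO, against 8.32 ± 0.535 CPM in WT (SD, n = 3 each). Its log2 fold change was −0.49 (SE 0.11, adjusted p = 0.0160 in the same edgeR test), and it did not pass without KO replicate 1 (adjusted p = 0.0657) or KO replicate 3 (0.0767), nor with the covariate (0.190). The next genes, Rnf31 at −0.08 and Tm9sf1 at 0.12, did not pass.

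**Figure D4:**
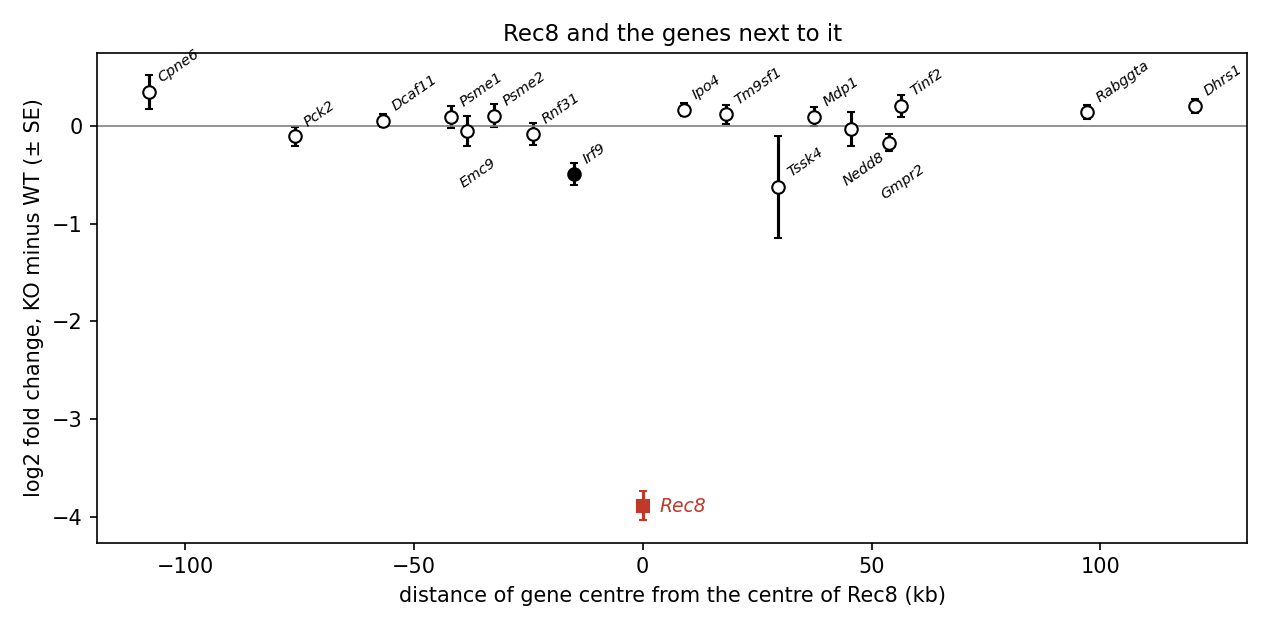
Log2 fold change, KO minus WT, with its SE for Rec8 (red square) and the 17 tested genes nearest to it, against the distance between gene centres in kilobases; the filled circle passed the test and open circles did not. Rec8 lies at −3.88, Irf9 at −0.49 and Ipo4, the closest gene, at 0.17.

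Of the other meiosis-specific cohesin subunits, Stag3 had 1.09 ± 0.0901 CPM in KO and 1.41 ± 0.634 CPM in WT (SD, n = 3 each), at −0.55 in log2 terms (SE 0.26, adjusted p = 0.174 in edgeR's quasi-likelihood test, adjusted by Benjamini-Hochberg). Rad21l averaged 0.335 CPM in KO and 0.288 CPM in WT, and Smc1b had at most 0.151 CPM in any library and was not tested. Of the tested subunits 0 passed in edgeR, 0 had an unadjusted p under 0.05, and DESeq2 and limma-voom called 0. Stag3 was at −1.29 (SE 0.43, adjusted p = 0.0827, edgeR) with the covariate and did not pass. Nor did it pass without WT replicate 3, at −0.66 (SE 0.23, adjusted p = 0.0579, edgeR). Of 25 listed genes of meiotic prophase, 24 were in the tables and 10 had enough reads to test; 2 were lower in KO and 0 higher, where 10.2% of all tested genes were called lower. Sycp2, a protein of the synaptonemal complex, fell to 0.533 ± 0.160 CPM in KO, against 1.38 ± 0.0898 CPM in WT (SD, n = 3 each), and the log2 fold change was −1.35 (SE 0.27, adjusted p = 0.00891, edgeR). Msh4, a meiotic mismatch repair homolog, was at −0.92 (SE 0.28, adjusted p = 0.0472, edgeR), with overlapping groups. Leaving out each library in turn, Sycp2 passed in all 6 fits and Msh4 in 1, that without WT replicate 3 (adjusted p up to 0.152 in the others, edgeR). With the covariate Sycp2 was at −1.35 (SE 0.45, adjusted p = 0.0862) and Msh4 at −1.42 (SE 0.49, adjusted p = 0.0936, edgeR). Neither passed, though the difference was almost the same for Sycp2 and larger for Msh4. Sycp1, at −0.38 in the fit without the covariate, was called higher with it at 1.04 (adjusted p = 0.00213, edgeR). Mlh3 (−0.14) and Prdm9 (−0.67) did not pass. The defining germ cell markers Ddx4, Dazl, Mael, Stra8, Tex101, Sohlh1, Sohlh2 and Tdrd1 summed to between 1.37 and 2.10 CPM in KO and 1.45 and 2.17 CPM in WT. Tex101 had 0 reads in every library, and of the 2 germ cell markers tested 0 passed in edgeR, in DESeq2 or in limma-voom, and 0 had an unadjusted p under 0.05.

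Regulators of cohesin, from a list that does not overlap the 10 genes, were tested in the same fit. Of 9 listed, 8 were tested, and 2 fell, 0 rose and 6 did not pass; the median log2 fold change was −0.32, against −0.01 over all tested genes, of which 10.2% were called lower. Esco1, which acetylates Smc3 and so locks the ring, fell to 31.3 ± 3.83 CPM in KO, against 40.2 ± 0.961 CPM in WT (SD, n = 3 each), and Hdac8, which removes that acetyl group, to 12.6 ± 0.801 CPM in KO, against 17.6 ± 2.81 CPM in WT. Esco1 was at −0.36 (SE 0.09, adjusted p = 0.0231) and Hdac8 at −0.45 (SE 0.12, adjusted p = 0.0268) in edgeR's quasi-likelihood test, adjusted by Benjamini-Hochberg. Mau2, the partner of Nipbl in the loader, had 101, 101 and 104 CPM in KO and 94.9, 94.8 and 78.1 CPM in WT. Its KO libraries were all above the WT libraries, at a log2 difference of 0.18 (SE 0.08, adjusted p = 0.134, edgeR), a sign opposite to that of Nipbl, and −0.04 with the covariate. Pttg1, the securin gene, was at 0.05 and Sgol2a, a shugoshin gene, at −0.34, and neither passed. Esco1 did not pass without KO replicate 1, KO replicate 2 or WT replicate 2 (adjusted p up to 0.0980), and Hdac8 did not without any 1 of these or KO replicate 3 (up to 0.108, edgeR). With the covariate neither passed: Esco1 was again at −0.36, with a wider SE of 0.14 (adjusted p = 0.149), while Hdac8 was at −0.20 (SE 0.15, adjusted p = 0.459, edgeR).

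Of 6 genes of loop formation besides cohesin, 1 fell and 5 did not pass, with a median of −0.17. Over all tested genes 10.2% were called lower. Zfp143, a zinc finger protein of loop anchors at promoters, was at −0.35 (SE 0.10, adjusted p = 0.0375 in edgeR's quasi-likelihood test, adjusted by Benjamini-Hochberg). It did not pass without KO replicate 1, 2 or 3 or WT replicate 2 (adjusted p up to 0.127), by DESeq2 (0.0742) or with the covariate (0.396, edgeR). Ctcf, which halts cohesin at loop ends and was named after its values were seen, had 50.6, 42.5 and 44.7 CPM in KO and 48.1, 51.5 and 65.6 CPM in WT. The groups overlapped and its log2 fold change of −0.24 (SE 0.11, adjusted p = 0.173, edgeR) did not pass. Maz (0.08) and Ldb1 (−0.18) did not pass.

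The other SMC complexes of the cell held genes that were called, all lower, a direction in which 10.2% of all tested genes were called. Of 8 condensin genes, 3 fell, 0 rose and 5 did not pass (median −0.31). Ncapd3, a subunit of condensin II, fell to 23.3 ± 1.58 CPM in KO, against 34.5 ± 2.52 CPM in WT (SD, n = 3 each), lower by 0.55 in log2 units (SE 0.08, adjusted p = 0.00207 in edgeR's quasi-likelihood test, adjusted by Benjamini-Hochberg). Smc2 (−0.41) and Ncapd2 (−0.31) fell as well, while Ncaph2 (0.11), Smc4 (−0.31) and Ncapg2 (−0.14) did not pass. Of 9 genes of the SMC5/6 complex, which works in DNA repair, 4 fell, 0 rose and 5 did not pass (median −0.24). Smc5 fell to 23.6 ± 1.12 CPM in KO, against 40.9 ± 6.43 CPM in WT (SD, n = 3 each), lower by 0.77 in log2 units (SE 0.10, adjusted p = 0.00102, edgeR). Its partner Smc6 was at −0.24 (SE 0.10) and did not pass. Fam178a, also called Slf2 (−0.39), Ankrd32, also called Slf1 (−0.30), and Eid3 (−1.11, at 0.267 CPM in KO and 0.554 CPM in WT on average) fell, and Ndnl2 (0.23) and Nsmce4a (−0.06) did not pass. Leaving out each library in turn, Ncapd3, Smc5 and Fam178a passed in all 6 fits. Smc2, Ncapd2 and Ankrd32 did not pass without KO replicate 1, 2 or 3 or WT replicate 2 (adjusted p up to 0.143, edgeR), and Eid3 passed only without WT replicate 3 among these fits (up to 0.126). Ndnl2 was called higher without WT replicate 3 (0.29) and by limma-voom (0.25). Without WT replicate 1 Smc4 (−0.46, adjusted p = 0.0182) and Smc6 (−0.33, adjusted p = 0.0395, edgeR) were called lower. With the covariate Ncapd2 (adjusted p = 0.460) and Eid3 (0.176) did not pass in edgeR, nor did Eid3 by DESeq2 (0.201).

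Of 10 proliferation markers, 3 fell, 0 rose and 7 did not pass, where 10.2% of all tested genes were called lower. The list's summed level was 17.2 to 20.3 CPM in KO and 26.4 to 39.8 CPM in WT. Top2a was at −0.92, Ccnb2 at −1.20 and Mcm2 at −0.61. Ccnb2 passed in all 6 fits that leave out a library, Top2a did not without KO replicate 2 or 3, and Mcm2 did not without these or WT replicate 2 (adjusted p up to 0.0988, edgeR); with the covariate 0 of the 10 passed. The part of dividing cells in the values of the cohesin genes was not tested. Of 5 vessel markers 4 fell, with a summed level of 107 to 109 CPM in KO and 157 to 170 CPM in WT, and their part was not tested either.

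Some markers of the main neurons of the cerebellum were also called, granule neuron genes lower in KO and Purkinje cell genes higher. Of 6 granule neuron markers, 2 were called, both lower in KO, where 10.2% of all tested genes were called lower. The list's median was −0.38. Gabra6, a GABA receptor subunit, was at −0.66 (adjusted p = 0.0157) and Reln, the secreted protein reelin, at −0.42 (adjusted p = 0.0110, edgeR). The list summed to 1072 to 1419 CPM in KO and 1374 to 1742 CPM in WT, ranges that overlap. Of 6 Purkinje cell markers, 2 rose, 0 fell and 4 did not pass, where 6.43% of all tested genes were called higher. The list had a median of 0.23 and summed levels of 3027 to 3886 CPM in KO and 2746 to 3328 CPM in WT, which overlap too. Calb1, a calcium-binding protein, was at 0.36 (adjusted p = 0.0163) and Slc1a6, a glutamate transporter, at 0.44 (adjusted p = 0.0295, edgeR). Itpr1 and Ppp1r17 were both at 0.23, while Car8 (−0.27) and Pcp2 (−0.03) had the other sign. Without KO replicate 3 and with the covariate 0 genes of either list were called, and without KO replicate 1 there were 4 granule and 0 Purkinje calls. Without WT replicate 3 Reln and Calb1 were called, without KO replicate 2 Gabra6 and Calb1, and without WT replicate 1 there were 4 granule calls while Calb1 rose and Car8 fell. DESeq2 called 4 granule markers and limma-voom 3, and limma-voom also called Car8 lower. Of 5 microglia markers Cx3cr1 was called, higher at 0.51, though not with the covariate, and the list summed to 134 to 140 CPM in KO and 120 to 135 CPM in WT. Oligodendrocyte markers summed to 28286 to 30411 CPM in KO and 22170 to 25569 CPM in WT, with a median of 0.28; DESeq2 called 4 of the 5 higher, limma-voom 2 and edgeR 0, with 4 at an unadjusted p under 0.05. The part of these cell types in the values of the cohesin genes was not tested.

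**Figure D5:**
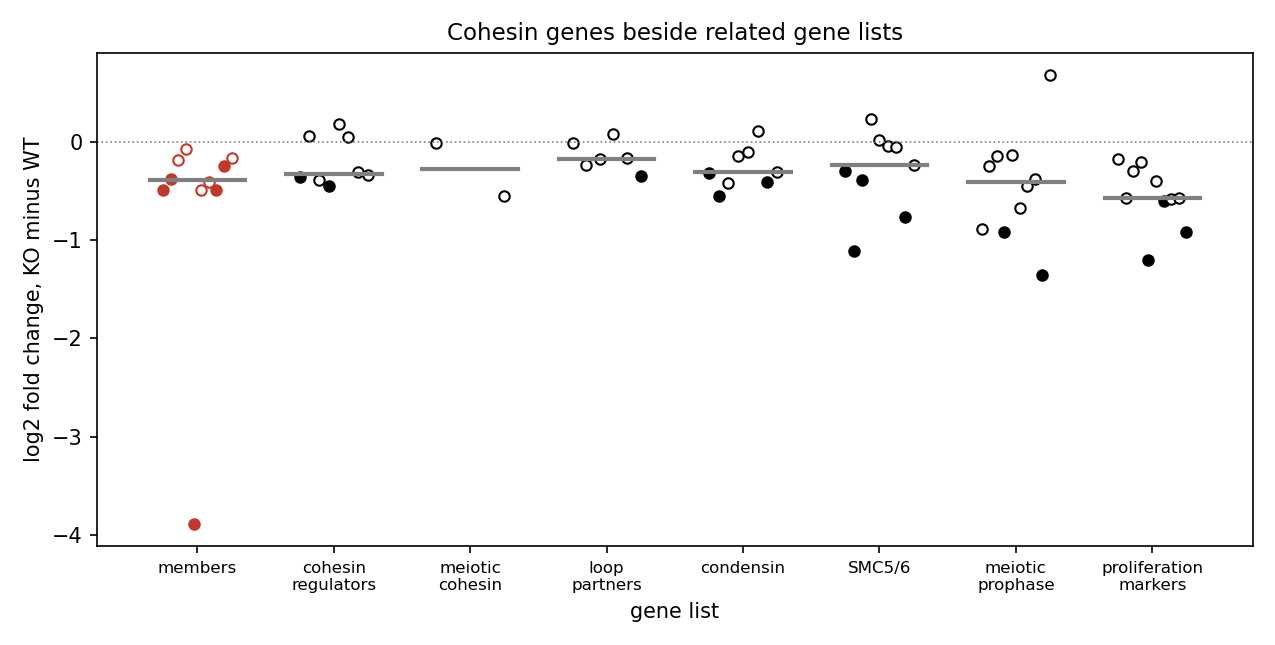
Log2 fold change, KO minus WT, of each tested gene of the 10 cohesin genes (red) and of related lists (black), with a grey bar at each list's median; filled circles had an adjusted p under 0.05 and open circles did not. Apart from Rec8 at −3.88, the cohesin genes lie between −0.49 and −0.07, and no plotted gene was called higher in this fit, the one without a covariate.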

How the data were processed

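The deposited files are raw read counts per gene and strand, 1 file per library. Per the submitters' processing notes the authors used Trimmomatic, STAR and the mm10 genome; the sources used here give no versions, annotation or strand setting. Counts came from the strand column with more reads, without its 4 summary lines. STAR counts reads in exons only and leaves out reads with several places in the genome. Groups and replicate numbers came from the sample titles; the tissue entry reads retina, the protocol cerebellum. The deposited file of KO replicate 3 is named RN where those of the other KO libraries are named RE; its title was followed.

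Genes with low counts were removed (filterByExpr), which left 15519 of 24411. The genotypes were tested by edgeR's robust quasi-likelihood fit (edgeR 4.0.16, limma 3.58.1, R 4.3.3) on all 6 libraries after TMM scaling. P-values were adjusted by Benjamini-Hochberg over every tested gene, and those under 0.05 were called. Log2 fold changes are KO minus WT, with SE derived from the F statistic. CPM use TMM-scaled library sizes, and CPM per kilobase the merged exons of GENCODE M21 (GRCm38). Intervals and the value of 3 counts cover counting error only. DESeq2 1.42.0, limma-voom with sample quality weights, other scalings, filters and strands, a covariate, a replicate block and leaving out each library were alternatives.

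The 10 genes, the gene lists and the rule for naming genes were chosen with earlier results of these data known. In each list the called genes and up to 3 more with the highest mean CPM are named, with the nearest neighbours of Rec8 on each side, its 5 most similar genes and the checks of the libraries; some listed genes are counted but not reported here by name.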

Additional observations from a re-analysis of the deposited data

How the results depend on the processing

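The log2 fold change of Rec8 lay between −4.00 and −3.72 under the 14 alternatives. Genes called over the whole table numbered 2585, against 4044 by limma-voom with sample quality weights, 1422 with the covariate and 1041 to 3719 without 1 library. Of the 10 members 5 were called, 2 with the covariate and 3 to 5 without 1 library, counts from which nothing is read. The somatic median of −0.38 was −0.23 by limma-voom, −0.07 with the covariate and −0.44 to −0.19 without 1 library. With the covariate 0 regulators, 0 loop genes and 1 gene of meiotic prophase were called. DESeq2 called 0 loop genes and 1 of meiotic prophase, limma-voom 2 loop genes and 2 neighbours of Rec8, and the fit without a filter 1 of meiotic prophase. Counted without regard to strand, 2 neighbours were called. Without 1 library the ranges were 0 to 2 regulators, 0 to 1 loop gene, 1 to 4 condensin, 2 to 5 SMC5/6 and 1 to 2 meiotic prophase genes, and 0 to 2 neighbours. The difference in kleisin share, −15.85 points, was −11.66 from reads not divided by length and −18.99 by the longest transcript, a length chosen after seeing the data. The cause of these shifts was not tested. The few reads of WT replicate 3 limit what can be said of genes near 1 CPM.

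The replicate numbers were checked as pairs: deviations from the group means correlated at −0.18, −0.14 and −0.10 between KO and WT libraries of the same number. Between libraries of different numbers the correlations ran from −0.01 to 0.13. With 3 libraries per group these values cannot show whether libraries of the same number share more than that number. With the replicate block 1073 genes were called, 4 members (Stag2 not), 0 regulators, 0 loop genes, 1 condensin, 2 SMC5/6 and 1 meiotic prophase gene, and 0 neighbours.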
